A study of Homo sapiens with 3 samples.

Results

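The epidermal differentiation complex (EDC) was taken here as the protein-coding genes of GENCODE release 44 whose canonical transcription start site (TSS) lies at chr1:151950000-153650000 on hg19, which gave 66 of 19874 protein-coding genes. ETS1 binding there was read from 1 list of 26970 ETS1 ChIP-Seq peaks in SCC25 cells, an established line derived from a tongue squamous cell carcinoma, and 57 lay in the interval. The list came from 3 samples of untreated cells, 2 of them precipitated with C20 and 1 with 501A, both of them antibodies against ETS1. The authors pooled them into consensus peaks by IDR, a method that retains those ranked alike in repeated experiments. Each line gives a position and no height, summit, read count or value per sample. Depth per sample, the spread between samples and a comparison of the antibodies could therefore not be had, and no difference below carries a test. Shares are given with 95% Wilson intervals, densities with exact Poisson intervals and medians with exact order-statistic intervals, which cover counting error only. Expression of the genes was not measured in these samples. Peaks of the EDC are numbered 1 to 57 along the chromosome.

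The EDC holds the genes that build the outer layers of the skin as keratinocytes differentiate. Involucrin (IVL), loricrin (LORICRIN), the small proline-rich proteins (SPRR) and the late cornified envelope proteins (LCE) are cross-linked into the cornified envelope, the shell that replaces the plasma membrane of the dying cell. Filaggrin (FLG) bundles keratins, and filaggrin and its relatives, the S100-fused proteins, carry an S100-type calcium-binding part at one end. The S100 genes encode small calcium-binding proteins with roles in signalling, in innate defence and in many cell types outside the skin. ETS1 is a transcription factor that binds a GGAA core, and AP-1 (JUN and FOS dimers) is known for its sites in the promoters of several EDC genes. The 66 genes were grouped by symbol into 16 S100 genes, 7 S100-fused genes, 11 SPRR genes, 19 LCE genes, 9 other genes and 4 neighbour genes (CRCT1, CHTOP, SNAPIN and ILF2). The 9 others, called other skin genes below, are mostly genes of the cornified envelope or skin, but include SMCP, which encodes a sperm mitochondrial protein. Neighbours are the genes in none of the lists, and one of them, CRCT1, lies inside the complex between LCE5A and LCE3E.

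The bound sequences below show the kinds of site the results turn on. The first 2 are the 250 bases upstream of the TSS of SPRR1B, a cornified envelope precursor, and of S100A9, a subunit of the antimicrobial protein calprotectin. They lie at chr1:153003429-153003678 and chr1:153330080-153330329 on hg19, both on the forward strand, and a peak covered both TSSs. Capitals mark matches on either strand to AGGAAG or AGGAAA (here the ETS core), to CGGAAG or CGGAAA (its forms with a CpG) and to TGANTCA (an AP-1 site, N being any base).
SPRR1B: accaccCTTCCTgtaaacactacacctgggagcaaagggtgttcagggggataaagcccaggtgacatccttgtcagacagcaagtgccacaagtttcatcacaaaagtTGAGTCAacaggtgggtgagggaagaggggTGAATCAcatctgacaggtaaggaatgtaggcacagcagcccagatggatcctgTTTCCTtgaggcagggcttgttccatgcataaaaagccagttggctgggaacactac
S100A9: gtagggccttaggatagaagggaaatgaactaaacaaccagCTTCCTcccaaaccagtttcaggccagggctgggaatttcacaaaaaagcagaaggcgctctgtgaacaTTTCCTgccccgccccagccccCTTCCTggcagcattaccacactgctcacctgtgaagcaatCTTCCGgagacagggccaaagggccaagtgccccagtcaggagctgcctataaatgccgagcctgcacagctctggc

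SPRR1B held AP-1 matches at -141 to -135 and at -111 to -105 from the TSS, with an AGGAAG at -244 to -239 and an AGGAAA at -57 to -52. S100A9 held no AP-1 match and had AGGAAG at -209 to -204 and at -118 to -113, AGGAAA at -140 to -135 and CGGAAG at -77 to -72. The next set shows the 200 bases with most matches in peaks away from these promoters. Here and in the last set, only windows free of annotated untranslated regions were considered. For IVL the window lay upstream of the gene, at chr1:152878831-152879030. For LCE1E it lay in the intron next to the TSS, at chr1:152758897-152759096, and for LCE5A upstream, at chr1:152479674-152479873, all on the forward strand.
IVL: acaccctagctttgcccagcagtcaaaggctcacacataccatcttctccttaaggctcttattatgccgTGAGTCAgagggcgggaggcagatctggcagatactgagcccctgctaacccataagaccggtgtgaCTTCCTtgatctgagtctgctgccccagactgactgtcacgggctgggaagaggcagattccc
LCE1E: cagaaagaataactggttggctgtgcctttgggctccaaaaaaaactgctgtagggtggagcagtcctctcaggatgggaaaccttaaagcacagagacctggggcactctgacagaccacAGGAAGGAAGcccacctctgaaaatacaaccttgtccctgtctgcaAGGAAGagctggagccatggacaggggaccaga
LCE5A: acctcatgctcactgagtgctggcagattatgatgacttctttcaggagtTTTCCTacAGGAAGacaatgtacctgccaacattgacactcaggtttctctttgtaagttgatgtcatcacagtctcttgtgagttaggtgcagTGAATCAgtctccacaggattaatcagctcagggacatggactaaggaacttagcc

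The IVL window joined an AP-1 match at -2121 to -2115 with an AGGAAG at -2054 to -2049, in the upstream region long studied as the distal enhancer of the gene. The LCE1E window held 3 AGGAAG matches, of which the pair at 285 to 290 and 289 to 294 overlapped. In the LCE5A window an AGGAAA at -3555 to -3550 stood next to an AGGAAG at -3547 to -3542, with an AP-1 match at -3461 to -3455. The last set is read on the reverse strand, on which its genes lie. It shows the coding exon of TCHH (trichohyalin, of the hair follicle's inner root sheath) at chr1:152082692-152082891 and an intron of S100A10 (the partner of annexin A2) at chr1:151962010-151962209. The S100A2 window, at chr1:153538626-153538825, lies upstream of the canonical TSS but inside the gene as annotated over all its transcripts.
TCHH: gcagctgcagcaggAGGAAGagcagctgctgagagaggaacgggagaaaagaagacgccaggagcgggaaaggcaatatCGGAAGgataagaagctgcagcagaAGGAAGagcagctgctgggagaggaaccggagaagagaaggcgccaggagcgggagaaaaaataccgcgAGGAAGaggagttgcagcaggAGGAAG
S100A10: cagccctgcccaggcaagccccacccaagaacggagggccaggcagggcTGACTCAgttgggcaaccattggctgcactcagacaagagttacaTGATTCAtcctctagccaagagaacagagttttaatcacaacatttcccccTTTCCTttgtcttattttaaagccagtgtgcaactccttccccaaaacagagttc
S100A2: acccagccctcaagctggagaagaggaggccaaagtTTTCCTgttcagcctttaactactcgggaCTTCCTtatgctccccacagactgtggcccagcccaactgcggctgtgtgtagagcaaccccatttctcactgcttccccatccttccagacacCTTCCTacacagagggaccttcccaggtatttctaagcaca

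The TCHH window is part of the repeated coding sequence of that exon and held AGGAAG 4 times and CGGAAG once. The S100A10 window held 2 AP-1 matches, at 4220 to 4226 and 4175 to 4181 from the TSS, and an AGGAAA at 4271 to 4276. In S100A2, an EF-hand protein of basal epithelial cells, 2 AGGAAG matches and 1 AGGAAA lay between -469 and -341. A match of letters is a description and does not show that ETS1 touches that site.

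Peaks were denser in the EDC than in most of chromosome 1, and so were genes. The interval held 33.5 peaks per Mb (95% interval 25.4 to 43.4), against 12.7 (12.3 to 13.2) on the rest of chromosome 1 and 9.14 (9.02 to 9.25) on the other nuclear chromosomes. It held 38.8 genes per Mb against 8.76 on the rest of chromosome 1, which came to 0.864 peaks per gene against 1.45. Peaks covered 3.46% of the EDC and 1.44% of the rest of chromosome 1. Of 132 other windows of 1.7 Mb tiled along the chromosome, 121 had fewer peaks per Mb and 10 had more, and the median was 9.22. Among the 14 windows with at least 30 genes, 7 had more peaks per Mb than the EDC. By peaks per Mb the EDC thus lay high among all windows of chromosome 1 and in the middle of those rich in genes. It held the most genes of any window, 66 against at most 59 elsewhere.

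**Figure D1:**
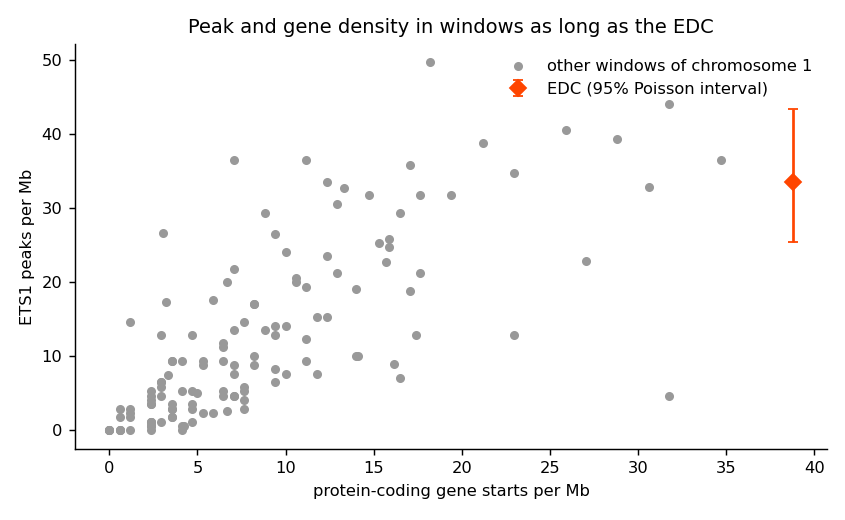
Each grey point is 1 of 132 windows of 1.7 Mb on chromosome 1, with its protein-coding gene starts per Mb on the x axis and its ETS1 peaks per Mb on the y axis. The diamond is the EDC at 38.8 genes and 33.5 peaks per Mb with its 95% Poisson interval. It lies farthest right, and windows with at least 30 genes lie above and below it.

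Within the EDC the peaks gathered at the 2 ends that hold the S100 genes. The stretch from S100A9 to ILF2 held 26 peaks in 324 kb (80.2 per Mb, 52.4 to 118), which was 45.6% of the peaks with 25.8% of the genes. The stretch of S100A10 and S100A11 held 9 peaks in 85.5 kb (105 per Mb, 48.1 to 200). Between these ends, where the cornified envelope genes lie, the stretches were sparser. From SMCP to SPRR2G, which takes in IVL and the SPRR genes, 9 peaks were listed in 308 kb (29.2 per Mb, 13.4 to 55.5). TCHHL1 to CRNN, the S100-fused genes, held 6 peaks in 399 kb (15.0 per Mb, 5.51 to 32.7), and LCE5A to LCE7A held 5 in 407 kb (12.3 per Mb, 3.99 to 28.7). LELP1 to PGLYRP4, which includes LORICRIN, had 2 peaks in 176 kb (11.4 per Mb, 1.37 to 41.0). Without the stretch from S100A9 to ILF2 the density was 22.5 peaks per Mb (15.3 to 32.0).

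**Figure D2:**
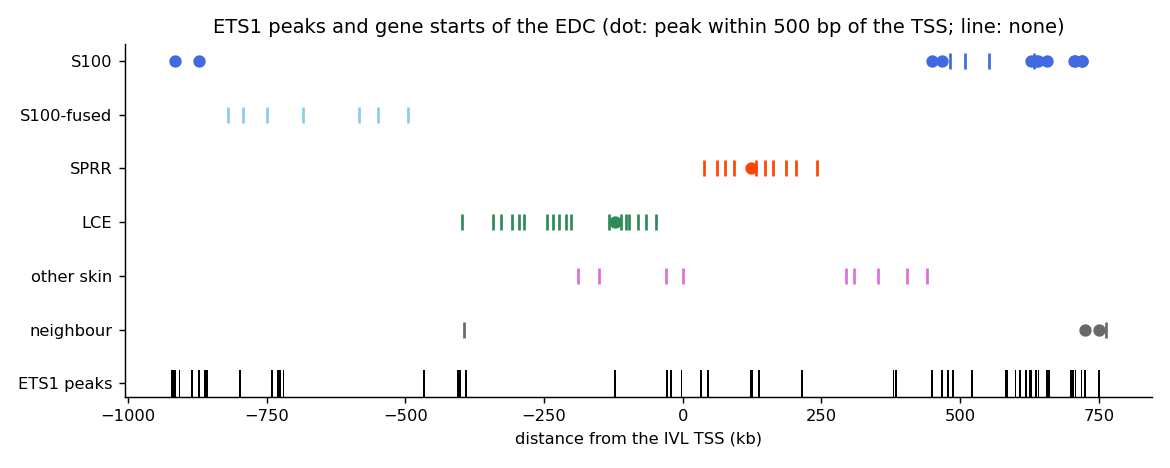
The x axis gives the distance from the IVL TSS in kb. Each mark in the upper lanes is the TSS of 1 gene, a dot where a peak lay within 500 bp and a line where none did, and the bottom lane holds the 57 ETS1 peaks. Dots crowd in the S100 lane at both ends, and the LCE and S100-fused lanes span long stretches without a peak.

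The longest stretches without a peak in the EDC fell over the LCE and filaggrin genes. The longest, 268 kb, ran from peak 19 (chr1:152489644-152490391), downstream of CRCT1, to peak 20 (chr1:152758475-152759124), which covered the TSS of LCE1E. It contained the TSSs of 13 genes, all of LCE2, LCE3 and LCE4 with LCE1F, C1orf68 and KPRP. The next, 253 kb from peak 14 to peak 15, spanned HRNR, FLG, FLG2 and CRNN, all genes of the S100-fused family. The third, 165 kb after peak 29, spanned SPRR2G, LELP1, PRR9 and LORICRIN. Over all 56 gaps between neighbouring peaks, these included, the median was 9252 bp against 21708 bp on the rest of chromosome 1, and 9 were under 1 kb (16.1% against 8.37%). Longer stretches than these occur on the rest of chromosome 1, where a TSS lay up to 2330390 bp from a peak.

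A peak lay within 500 bp of the TSS in 16 of the 66 genes (24.2%, 15.5 to 35.8), against 54.2% of 1959 genes on the rest of chromosome 1. The S100 genes stood apart from the S100-fused, SPRR, LCE and other skin genes in this count. The intervals below count neighbouring and related genes as independent, although some share a peak. Of 16 S100 genes 12 had a peak within 500 bp of the TSS (75.0%, 50.5 to 89.8), an interval that holds the 54.2% of the rest of chromosome 1. Of the 46 genes outside the S100 and neighbour groups 2 had one (4.35%, 1.20 to 14.5). The 2 were SPRR1B of 11 SPRR genes (9.09%, 1.62 to 37.7) and LCE1E of 19 LCE genes (5.26%, 0.935 to 24.6). None of the 7 S100-fused genes had one (upper limit 35.4%), and none of the 9 other skin genes did (upper limit 29.9%). Of the neighbours, CHTOP and SNAPIN, which serve RNA export and vesicle fusion in most cells, had a peak at the TSS. ILF2, a double-stranded RNA-binding protein, had its nearest peak 11515 bp away, and CRCT1 2686 bp away. Wider rules gave 16 genes within 1500 bp (24.2% against 55.9% on the rest of chromosome 1) and 20 in the basal domain of GREAT, from 5 kb upstream to 1 kb downstream of the TSS (30.3% against 57.5%). With the default domain, which extends to the neighbouring genes, 38 had at least 1 peak (57.6% against 77.6%). The default domains of EDC genes were smaller, with a median of 35.9 kb against 109 kb, so the last pair of shares compares domains of unequal size. The share of the EDC was below that of the rest of chromosome 1 by each of these rules.

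**Figure D3:**
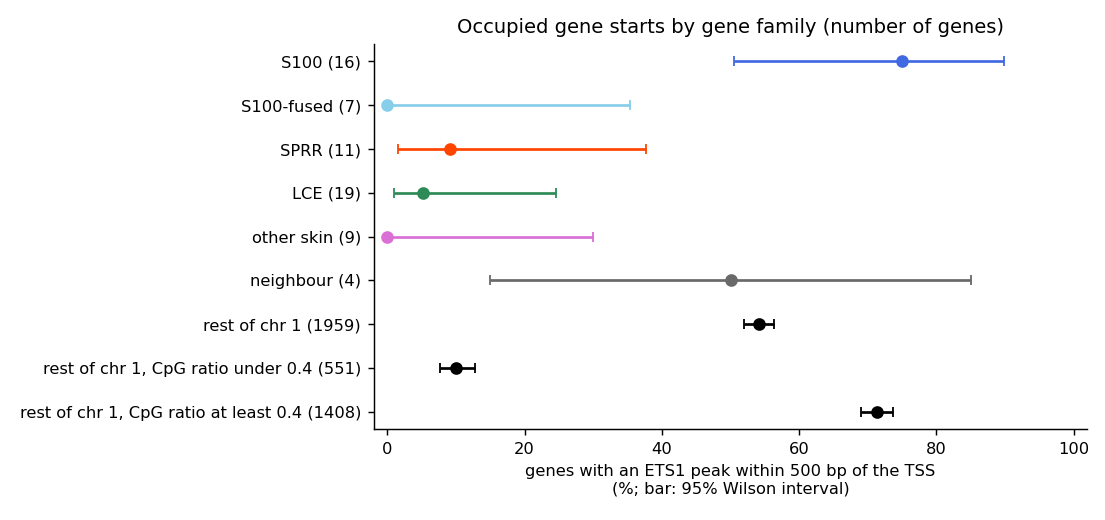
Points give the percentage of genes with an ETS1 peak within 500 bp of the TSS and bars the 95% Wilson interval, with the number of genes in brackets. S100 genes sit at 75.0%, the S100-fused, SPRR, LCE and other skin genes between 0 and 9.09%, and the rest of chromosome 1 at 9.98% or 71.4% by the CpG ratio around the TSS.

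Against other gene-rich windows the share of occupied TSSs was also low. In the 14 windows with at least 30 genes it ran from 9.26 to 80.6% with a median of 60.0%, and 1 window was below the EDC. Among 77 windows with at least 10 genes 5 were below. The TSSs of the EDC also differed from most of the chromosome in sequence. The CpG ratio, the CpG dinucleotides observed within 500 bp of the TSS over those expected from the base content, was under 0.4 in 60 of 66 EDC genes (90.9%) and in 28.1% of genes on the rest of chromosome 1. CpG-poor TSSs were seldom bound on the rest of chromosome 1, with a peak at 55 of 551 (9.98%, 7.75 to 12.8), while those at or above 0.4 had one at 1006 of 1408 (71.4%, 69.0 to 73.7). Among CpG-poor TSSs, a peak was found in 9 of 13 S100 genes (69.2%, 42.4 to 87.3) and in 2 of the 46 genes outside the S100 and neighbour groups (4.35%, 1.20 to 14.5). Over all CpG-poor EDC genes the share was 18.3% (10.6 to 29.9), so that on this footing the EDC lay above the rest of the chromosome where over all genes it lay below. The part of the CpG content in these shares was not tested.

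The bound S100 genes lay at both ends of the complex. The 9 peaks of the first end had a median width of 637 bp, and a few stood out by width or place in the list. Peak 3 (chr1:151964656-151967316, 2661 bp) covered the TSS of S100A10 and was the second widest of the EDC and line 330 of the list. Peak 7 (chr1:152008716-152009786) covered the TSS of S100A11, a calcium-binding protein of the cornified envelope. The EDC peak earliest in the list, line 208, was peak 8 (chr1:152019791-152021286). Its midpoint lay 11058 bp upstream of the canonical TSS of S100A11, and the peak covered the 5′ end of the gene as annotated over all its transcripts (chr1:152004982-152020383), although it was counted as distal intergenic by its midpoint. The meaning of the order of the list is not given in the sources used here.

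At the other end, S100A9 and S100A12, both expressed by neutrophils and inflamed epithelium, had peaks over the TSS (chr1:153329730-153330485 and chr1:153347782-153348421). S100A8, the partner of S100A9 in calprotectin, had none there, and its nearest peak lay 4045 bp upstream. The psoriasins S100A7 and S100A7A, secreted antimicrobial proteins, had nearest peaks 29408 bp upstream and 12837 bp downstream. The calprotectin pair and their neighbours therefore split, with a peak at some TSSs and kilobases away at others. S100A6 (calcyclin) had a peak of 2220 bp over the TSS (chr1:153507460-153509679), and S100A7 and S100A6 had the most peaks of all members in the default domain, 9 each. They are neighbours and their domains overlap between the genes, so that peaks are counted for both. S100A4, a gene linked to cell motility, had a peak of 1020 bp starting 238 bp downstream of its canonical TSS, which covered another TSS of the gene (chr1:153517025-153518044). S100A3, abundant in the hair cuticle, had a peak over the TSS (chr1:153521233-153522978) that also covered a further TSS of S100A4. S100A5, which lies between S100A6 and S100A4, had its nearest peak 3615 bp upstream, and this was the peak at S100A4.

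S100A2 and S100A16 each had runs of peaks. In S100A2 peaks 48, 49 and 50 followed each other at 259 and 136 bp (widths 1682, 1676 and 2060 bp), and peak 49 (chr1:153537797-153539472, line 361 of the list) covered the canonical TSS. In S100A16 peaks 51, 52 and 53 followed at 168 and 242 bp, and peak 53 (chr1:153584260-153586687, 2428 bp, the third widest) covered the TSS. S100A14, next to it, had a peak of 1914 bp over the TSS (chr1:153587882-153589795). S100A13 and S100A1, neighbours read in opposite directions away from each other, shared 1 peak (chr1:153598677-153601430), the widest of the EDC at 2754 bp. The counts of 12 genes above are therefore not 12 independent peaks. The 4 S100 genes outside chromosome 1, S100B, S100P, S100Z and S100G, had no peak within 500 bp of the TSS. Their nearest peaks were at 62088, 4140, 29721 and 61632 bp, and the CpG ratio of all 4 was under 0.4.

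By the distance to the nearest peak, S100 genes were the closest and LCE genes the farthest. The median from the TSS to the nearest edge of a peak was 14514 bp (95% interval 5461 to 27974) over the 66 genes and 0 over the rest of chromosome 1. It was 0 in S100, 16191 bp in SPRR, 28394 bp in S100-fused, 48865 bp in LCE and 27974 bp in the other skin genes. LCE2D was the farthest member at 122619 bp. The LCE2 genes ran from 87654 to 122619 bp and the LCE3 genes from 48865 to 105188 bp, while in LCE1 the range was 0 to 40825 bp. LCE5A, the first LCE gene of the cluster, had 4 peaks in its default domain, the nearest of them 3260 bp upstream.

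Among the S100-fused genes, FLG was the farthest at 117418 bp and FLG2 followed at 82651 bp. HRNR (hornerin) was 34576 bp from a peak and CRNN (cornulin) 28394 bp. TCHHL1 lay 21085 bp from one, RPTN (repetin) 8612 bp and TCHH 3466 bp, the shortest distance of the family, to peak 10 within its own coding exon. FLG and FLG2 had no peak in the default domain, while HRNR, RPTN, CRNN, TCHHL1 and TCHH had 4, 4, 3, 3 and 1. Default domains of neighbouring genes overlap here too, so that peaks between HRNR and RPTN are counted for both, as is peak 10 for TCHHL1 and TCHH. Loss of filaggrin is known from ichthyosis vulgaris and atopic eczema.

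IVL had no peak within 1500 bp of the TSS, and its nearest, peak 23 (chr1:152878135-152879247), ended 1775 bp upstream. Of the genes without a peak within 500 bp of the TSS, none had a shorter distance. LORICRIN, the main protein of the cornified envelope, was 28743 bp from a peak. The SPRR genes, which cross-bridge the envelope, ranged from 0 for SPRR1B to 29624 bp for SPRR1A, its closest relative. SPRR3 was 29102 bp from a peak, and SPRR2A 10758 bp. Members of 1 subfamily were thus both at and kilobases away from a peak, as in SPRR1.

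**Figure D4:**
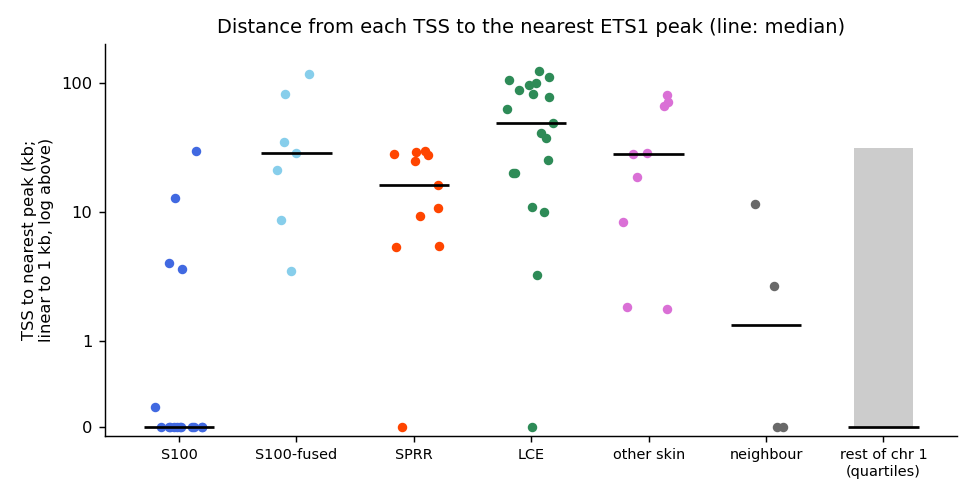
Each point is 1 gene, with the distance in kb from its TSS to the nearest ETS1 peak edge on an axis that is linear up to 1 kb and logarithmic above, and the line is the median of the family. Most S100 genes are at or near 0 and LCE genes reach 122619 bp, and the grey bar spans the quartiles of the rest of chromosome 1 (0 to 31233 bp).

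A peak can be listed only where reads can be placed, and the authors kept reads with a single locus. EDC families hold near-identical copies, so the share of 50-base reads around each TSS that match 1 locus, allowing up to 2 mismatches on chromosome 1, was computed from the reference. It was at least 90% in 58 of 66 genes. The lowest were LCE2B and LCE2C at 45.3%, S100A7 at 68.4%, S100A7A at 69.5%, SPRR2B at 75.8%, SPRR2E at 77.9%, S100A12 at 81.1% and LCE1A at 84.2%. Within the 58 genes a peak lay at the TSS in 15 (25.9%), against 57.2% of 1772 such genes on the rest of chromosome 1. All 7 S100-fused genes were among the 58 and none had a peak, and in LCE the count was 1 of 16. In the stretch without a peak over HRNR, FLG and FLG2 the share was 80.2%, and in the longest stretch, over LCE2 and LCE3, it was 91.8%. For the LCE2B, LCE2C, S100A7 and S100A7A TSSs, where the share is lowest, absence from the list cannot be told apart from reads that could not be placed.

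Most EDC peaks lay away from promoters. By the midpoint of the peak, 18 were within 500 bp of any TSS of a protein-coding transcript (31.6%, 21.0 to 44.5) and 2 between 500 and 1500 bp. Inside genes beyond 1500 bp lay 4 (7.02%, 2.76 to 16.7), and 33 were distal intergenic (57.9%, 45.0 to 69.8). On the rest of chromosome 1 the promoter share was 34.8%, the intragenic share 28.7% and the distal intergenic share 30.9% (29.2 to 32.6). The EDC thus had a similar promoter share and a higher distal intergenic share with a lower intragenic share. Many EDC genes are short, such as LCE3B (chr1:152586287-152586574), and the part of gene length in these shares was not tested. Of the 4 intragenic peaks 2 lay in introns of S100A10, 1 in the TCHH exon and 1 in an intron of SMCP. In the stretch from S100A9 to ILF2 the promoter share was 53.8% (35.5 to 71.2), and in the rest of the EDC 12.9% (5.13 to 28.9). The median width of EDC peaks was 748 bp (625 to 1031) against 975 bp, a value inside that interval. Promoter peaks of the EDC had a median of 1679 bp against 1295 bp for all nuclear promoter peaks, and peaks over 1500 bp from a TSS one of 625 bp against 737 bp. Of the 57 peaks 33 stood in the first 13485 lines of the list (57.9% against 52.1%).

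The ETS core, AGGAAG or AGGAAA on either strand, was found in the central 200 bp of 33 of 57 EDC peaks (57.9%, 45.0 to 69.8), against 43.9% of 26961 nuclear peaks. The 2 forms differed. AGGAAA was present in 38.6% of EDC peaks (27.1 to 51.6) and 20.1% of all nuclear peaks, while for AGGAAG the shares were 31.6% and 30.6%. Of the forms with a CpG, CGGAAG was in 1 EDC peak (1.75%, 0.310 to 9.29) against 13.2%, and CGGAAA in 7 (12.3%, 6.08 to 23.2) against 7.19%. Either of them was in 14.0% of EDC peaks (7.29 to 25.3) against 18.8%. The median GC content of these windows was 55.0% in the EDC and 59.0% over all nuclear peaks, and its part in these shares was not tested. At promoters the core was in 11 of 18 EDC peaks (61.1%, 38.6 to 79.7) against 31.9% of 9663 nuclear promoter peaks. Over 1500 bp from a TSS it was in 56.8% (40.9 to 71.3) against 51.6%. The excess over all peaks shrank in wider windows. In 600 bp the core was in 87.7% of EDC peaks (76.8 to 93.9) against 79.2%. Over the whole peak the EDC share was 93.0% (83.3 to 97.2), an interval that holds the share of all nuclear peaks. In 600 bp at promoters the shares were 94.4% (74.2 to 99.0) and 69.4%. Over 1500 bp from a TSS they were 83.8% (68.9 to 92.3) and 85.4%, with the EDC below. Along whole peaks the median was 3.54 cores per kb against 2.66. The 2 highest were peak 12, upstream of RPTN, with 14.5 per kb in 344 bp, and the peak in the TCHH exon shown above, with 9.84 per kb and 15 copies of AGGAAG.

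AP-1 sites (TGANTCA) were no more frequent at the centre of EDC peaks than elsewhere, at 8 of 57 (14.0%, 7.29 to 25.3) against 15.1%. The value depended on the width searched. In 600 bp around the midpoint the share was 50.9% (38.3 to 63.4) against 30.9%, and over the whole peak 59.6% (46.7 to 71.4) against 40.5%. At peaks over 1500 bp from a TSS the shares in 600 bp were 64.9% (48.8 to 78.2) and 45.6%, with median peak widths of 625 and 737 bp. The list gives no summit, so the midpoint need not be where the signal was highest. In IVL both AP-1 matches of peak 23 lay outside the central 200 bp. A core and an AP-1 site stood together in the central 200 bp of 3 EDC peaks (5.26%, 1.81 to 14.4) against 8.0% of all nuclear peaks. They were 50 bp apart in the intron of S100A10, 56 bp apart at S100A12 and 103 bp apart at SPRR1B.

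**Figure D5:**
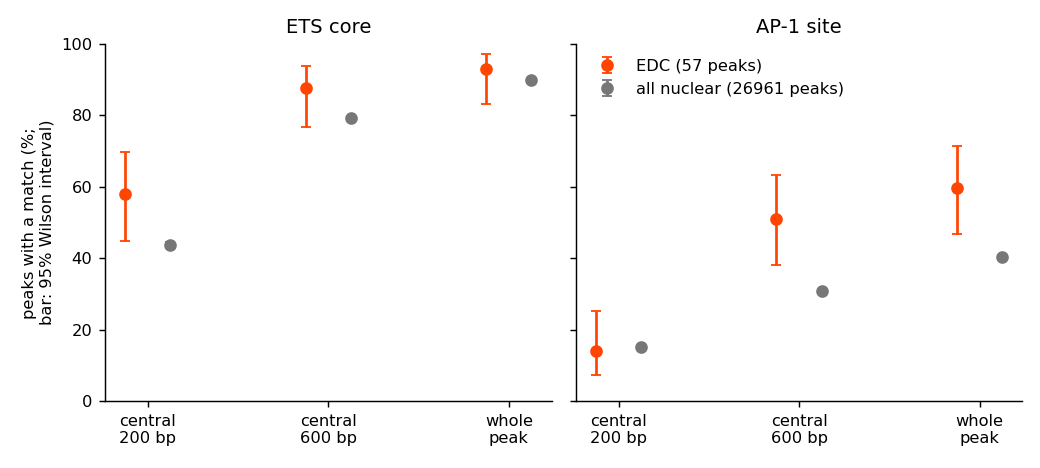
The y axis gives the percentage of peaks with at least 1 match, for the ETS core (left) and the AP-1 site (right), in the central 200 bp, the central 600 bp and the whole peak, with 95% Wilson intervals. For AP-1 the 57 EDC peaks and the 26961 nuclear peaks are alike in 200 bp (14.0 and 15.1%) and apart in the whole peak (59.6 and 40.5%).

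The promoters themselves differed between families whether or not they were bound. In the 250 bases upstream of the TSS the ETS core was present in 66.7% of EDC genes (54.7 to 76.8) against 42.3% of all protein-coding genes, and an AP-1 site in 33.3% (23.2 to 45.3) against 4.69%. The forms with a CpG, CGGAAG or CGGAAA, were in 6.06% (2.38 to 14.6) against 29.3%, and 4 S100 genes were the only EDC genes that held one. Of EDC TSSs 90.9% had a CpG ratio under 0.4, against 28.1% on the rest of chromosome 1. The part of base content in these promoter shares was not tested. The core was in 8 of 16 genes with a peak at the TSS (28.0 to 72.0%) and in 36 of 50 without one (58.3 to 82.5%), intervals that overlap. AP-1 sites were in 6 of 7 S100-fused, 8 of 11 SPRR, 4 of 9 other skin and 4 of 16 S100 promoters, but in 0 of 19 LCE promoters (upper limit 16.8%). LCE genes are related copies, and that limit counts them as independent. The ETS core was in 14 of 19 LCE and 10 of 11 SPRR promoters, of which LCE1E and SPRR1B were the ones with a peak at the TSS. In S100 promoters the core was in 8 of 16 (50.0%, 28.0 to 72.0), an interval that holds the 42.3% of all protein-coding genes.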

How the data were processed

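ETS1 ChIP-Seq was performed in SCC25 cells in 3 samples. Per the labels the reads were mapped to hg19 with Bowtie 1.1.1 and handled with SAMtools 1.3. Reads that mapped to more than 1 locus were discarded by the authors, who ran MACS2 with a merged input as control and then IDR over samples, pseudo-replicates and the pool. They deposited 1 list of peak positions (chromosome, start counted from 0, end), with no signal or score.

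Positions are given 1-based. Genes and sequence were taken from GENCODE 44 lifted to GRCh37 (nuclear sequence as in hg19), with 1 canonical TSS per protein-coding gene. Mitochondrial peaks were left out of motif and distance counts. A gene counted as bound if at least 1 bp of a peak lay within 500 bp of its TSS. Peaks were classed by their midpoint at 500 and 1500 bp, and default domains extended up to 1 Mb. Unique placement was computed for 50-base reads every 10 bases, by exact matching over the genome and with bwa 0.7.19-r1273 (up to 2 mismatches) on chromosome 1. Windows of chromosome 1 with less than 50% sequence outside gaps were not used.

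The members and gene lists were chosen with earlier results of these data known. Named are the members with a peak at the TSS, the best-known cornified envelope and S100 genes, those nearest to and farthest from a peak or with most peaks, the ends of the longest gap, and the 3 widest and 3 earliest peaks. SPRR2B, SPRR2E, LCE1A, LCE2B, LCE2C, LCE5A, S100A5, S100A7A, ILF2, CRCT1, SMCP, the remaining LCE ranges, peaks 2, 12, 48 and 50 to 52, and the S100 genes elsewhere were named after their values were seen. The counting of bound genes was tested on simulated data, where 120 of 120 planted genes among 400 were found and none falsely. Scripts ran in Python 3.11.15 (pandas 2.3.3, numpy 2.4.6, pysam 0.24.0, scipy 1.17.1), with samtools 1.23.1.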

Additional observations from a re-analysis of the deposited data

How the results depend on the processing

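The 8 values were recomputed under 47 alternatives in all, of which 29 stayed within the interval of the main value (a count within 1.5 times) on the same side of the background, 14 moved beyond it without changing sides and 4 changed sides. With the first 13485 lines of the list the EDC held 33 peaks (19.4 per Mb, against 6.62 on the rest of chromosome 1). The median TSS distance was then 28336 bp (15463 bp on the rest of chromosome 1) and the ETS core was in 75.8% of peaks (44.3% of all). With only peaks at least as wide as the median of the list the EDC held 22 peaks. The density was 12.9 per Mb against 6.43 on the rest of chromosome 1, and the distance was 85091 bp against 8372 bp. An AP-1 site was in 4.55% (7.05% of all), and the promoter share was 63.6% against 50.8%, above the background instead of below. The default domain of GREAT gave 57.6% of genes. The ETS core was in 87.7% of peaks with 600 bp (79.2% of all). With whole peaks it was in 93.0% (83.3 to 97.2), an interval that holds the share of all nuclear peaks. The AP-1 site was in 50.9% with 600 bp and 59.6% with whole peaks, both above the background instead of below. The cause of these shifts was not tested, although a wider window can only add matches and a shorter list can only remove peaks. Of those added after the data were seen, CpG-poor genes alone gave 18.3% bound against 9.98%, above the background instead of below, the genes without S100 and neighbours gave 4.35%, and without the stretch from S100A9 to ILF2 the density was 22.5 per Mb and the promoter share 12.9%. No paired analysis was possible because the list is pooled over the 3 samples, and for the same reason no sample could be left out. Depth limits the list in a way that cannot be read from it: a missing peak may be weak binding or none.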
